A study of Mus musculus with 20 samples.

Results

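The carnitine shuttle was examined through 5 genes, Cpt1a, Cpt2, Slc25a20, Crat and Slc22a5, in chromatin immunoprecipitation sequencing (ChIP-seq) of fasted mouse liver. Members were the consensus intervals whose middle lay in, or within 10000 bases of, the RefSeq body of 1 of these genes on mm10. This gave 37 of 65776 H3K27ac intervals, 63 of 103014 H3K4me1 intervals and 43 of 46568 H3K9ac intervals, for 5 of 21887 protein-coding genes. The value of an interval in a library was the highest fold over input among the peaks that overlapped it, and a library with no overlapping peak had no call. H3K27ac marks active promoters and enhancers, H3K4me1 marks enhancers and the flanks of promoters, and H3K9ac marks active chromatin.

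Livers came from C57BL/6 male mice at 9 weeks of age after a 24 h fast, in every group. The 4 genotypes were wild type (WT), Cpt2 L-/- (a liver knockout of Cpt2, here Cpt2 KO), Ppara -/- (a knockout of Ppara, here Ppara KO) and Cpt2 L-/- ; Ppara -/- (the double knockout, DKO). H3K27ac and H3K4me1 libraries came from 2 livers per genotype, and H3K9ac libraries from 1 WT and 1 Cpt2 KO liver, with pooled input as background. The deleted segment of Cpt2, the driver of the liver deletion and the alleles carried by WT mice are not given in the sources used here, so the mark at Cpt2 was not used to check the labels. All samples were whole liver, in which fewer cells of a type and less mark per cell cannot be told apart.

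Long-chain fatty acids cannot cross the inner mitochondrial membrane as acyl-CoA. Cpt1a, the outer-membrane carnitine palmitoyltransferase of liver and the step inhibited by malonyl-CoA, transfers the acyl group to carnitine, Slc25a20 exchanges acylcarnitine for free carnitine across the inner membrane, and Cpt2 returns the acyl group to CoA on the matrix side. Crat, carnitine acetyltransferase, acts on short-chain acyl groups, and Slc22a5 (Octn2) brings carnitine into the cell. Ppara is a nuclear receptor that is activated by fatty acids and drives genes of fatty acid oxidation in the fasted liver.

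The promoters of the 4 genes with an entry in the RefSeq table (GRCm38.p6, 250 bases before to 50 bases after the start site, 300 bases, on the strand of the gene) are shown because the H3K27ac intervals described next lie over these start sites. Capitals mark every match, on either strand, to AGGTCA (a hexamer bound by nuclear receptors), GGGCGG (a GC box, CCGCCC on the other strand) or CCAAT (searched on either strand). Adjacent matches run together in capitals.
Cpt1a (chr19:3323051-3323350, + strand): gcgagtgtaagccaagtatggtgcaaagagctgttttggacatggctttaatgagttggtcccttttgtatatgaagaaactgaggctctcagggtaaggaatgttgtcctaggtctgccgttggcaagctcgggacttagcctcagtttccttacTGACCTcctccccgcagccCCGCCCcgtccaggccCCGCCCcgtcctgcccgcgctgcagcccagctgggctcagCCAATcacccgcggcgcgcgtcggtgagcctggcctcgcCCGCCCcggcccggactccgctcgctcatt
Cpt2 (chr4:107923540-107923839, - strand): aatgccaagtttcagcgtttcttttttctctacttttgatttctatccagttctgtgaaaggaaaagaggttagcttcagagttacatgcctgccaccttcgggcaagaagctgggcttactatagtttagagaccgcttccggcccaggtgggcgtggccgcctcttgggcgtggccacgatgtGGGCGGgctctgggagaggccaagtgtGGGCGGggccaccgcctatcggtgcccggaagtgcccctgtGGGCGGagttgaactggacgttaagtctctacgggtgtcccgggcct
Slc25a20 (chr9:108661886-108662185, + strand): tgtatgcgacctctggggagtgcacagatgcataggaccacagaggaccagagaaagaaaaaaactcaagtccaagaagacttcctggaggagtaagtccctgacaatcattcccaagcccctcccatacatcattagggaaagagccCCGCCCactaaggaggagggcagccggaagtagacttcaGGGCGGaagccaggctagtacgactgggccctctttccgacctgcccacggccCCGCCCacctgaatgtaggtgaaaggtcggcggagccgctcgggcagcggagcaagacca
Slc22a5 (chr11:53891654-53891953, - strand): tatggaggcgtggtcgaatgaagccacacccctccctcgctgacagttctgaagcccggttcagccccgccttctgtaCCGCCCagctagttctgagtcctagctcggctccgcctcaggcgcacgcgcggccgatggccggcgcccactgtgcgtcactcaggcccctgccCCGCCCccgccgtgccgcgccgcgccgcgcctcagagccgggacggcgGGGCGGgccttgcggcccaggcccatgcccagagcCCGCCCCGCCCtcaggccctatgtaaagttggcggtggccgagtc
All 4 windows hold GGGCGG, with 3 matches in Cpt1a, 3 in Cpt2, 3 in Slc25a20 and 5 in Slc22a5, and 35.7% of 32851 promoter windows of the same length hold it. AGGTCA was matched in Cpt1a alone, on the opposite strand with its first base at -94 from the start site, and 16.3% of all windows hold it. CCAAT was also matched in Cpt1a alone, at -19 (37.4% of all windows). A direct repeat of AGGNCA with 1 base between (DR1, searched on both strands) was matched in 0 of the 4 windows and in 0.381% of all. GC content was 62.3% in Cpt1a, 57.3% in Cpt2, 58.0% in Slc25a20 and 72.7% in Slc22a5, against a median of 52.7%.

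The libraries held 44454 to 48929 H3K27ac peaks and 61189 to 72151 H3K4me1 peaks, called by the authors in each library. All 6 hepatocyte markers examined were called in every library of both marks, and their summed H3K27ac fold was 102 to 142 in WT, Cpt2 KO and Ppara KO and 151 and 180 in DKO. Kupffer cell markers under H3K27ac (Clec4f, Adgre1, Vsig4, Cd5l and Timd4) differed by genotype. Their summed fold was 5.96 and 6.95 in WT with 1 of 5 called, 9.30 and 15.1 in Ppara KO with 1 or 2 called, 23.1 and 38.1 in Cpt2 KO with 3 or 5 called, and 42.4 and 53.6 in DKO with 5 called. Adgre1, Vsig4 and Cd5l were without a call in all 4 Cpt2-intact libraries, and under H3K4me1 0 of the 5 were called in any library. Under H3K27ac, 5 stellate cell markers summed to 22.3 to 25.4 in Cpt2-intact livers, with 3 or 4 called, and to 40.8 to 61.1 in Cpt2-null livers, with 4 or 5 called. The 5 endothelial markers, called in every H3K27ac library, summed to 68.0 to 82.1 in Cpt2-intact and 98.8 to 114 in Cpt2-null livers. Krt19, Krt7 and Epcam of cholangiocytes had no H3K27ac call in any library. Sox9, the other cholangiocyte marker, was called at 12.5 and 19.7 in WT, 5.81 and 7.25 in Ppara KO, 6.69 and 9.57 in DKO and in neither Cpt2 KO liver. The 3 leukocyte markers summed to 10.2 and 16.5 in WT with 1 called, and to 14.9 to 24.3 in the other genotypes with 2 called. The smallest peak width, a stand-in for fragment length, was 217 to 223 bases in the H3K27ac libraries of Cpt2-null livers and 198 to 210 bases in those of Cpt2-intact livers. The animal numbers in the peak names run from 9548 to 9589 for Ppara-intact and from 6833 to 6848 for Ppara-null livers, so animal series and Ppara state cannot be told apart. The part of the cell type markers in the results was not tested. With the smallest peak width as a covariate, the Ppara differences at the start-site intervals of Slc25a20 (-1.27, limma adjusted p = 0.00787) and Cpt2 (-0.77, adjusted p = 0.0452), described next, passed. For Cpt2 state 0 of 18281 H3K27ac intervals passed in that fit. Width separated the Cpt2 states without overlap, so that fit can hardly tell width from Cpt2 state.

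Of the 37 H3K27ac intervals at the 5 genes, 16 were called in all 8 libraries and were tested, so intervals absent from some livers are described by their calls instead. H3K27ac was lower in Ppara-null livers at 3 of the 16 tested intervals and higher at 0 (limma with Benjamini-Hochberg adjustment over all 18281 intervals called in all 8 libraries, adjusted p under 0.05). Across all tested intervals 7.34% passed in either direction, 4.15% lower and 3.19% higher. The median log2 difference (Ppara-null minus Ppara-intact, each library centred on its own median) was -0.19 for the 16 intervals and -0.01 for all intervals. The 3 intervals were the one over the Slc25a20 start site, the one over the Cpt2 start site and one in the Crat window that lies at Dolpp1.

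The largest of the 3 differences was at Slc25a20, the carnitine-acylcarnitine translocase. Its start-site interval, chr9:108661991-108664295, had H3K27ac folds of 14.6 and 21.7 in wild-type livers, 16.8 and 24.4 in the Cpt2 KO livers, 7.14 and 6.29 in the Ppara KO livers, and 7.71 and 9.00 in the DKO livers. All 4 Ppara-null livers were below all 4 Ppara-intact livers, a pattern shown by 3.28% of all intervals called in every library. The log2 difference was -1.37 ± 0.19 (SE), with a limma adjusted p of 0.00151. It remained past the threshold under each of the 16 other settings tried, with adjusted p from 0.000302 to 0.0105. The Cpt2 difference at the same interval was -0.02 ± 0.19 (limma adjusted p = 0.963).

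The extent of the called peak at Slc25a20 differed between the Ppara states as well as its height. In Ppara-intact livers 1 peak ran over the start site for 2058 to 2250 bases. In Ppara-null livers the peak over the start site was 259 and 210 bases long in Ppara KO and 316 and 286 bases in DKO, and a separate peak lay farther into the gene. The stretches from 238 to 415 and from 1092 to 1924 bases past the start site were called in all 4 Ppara-intact livers and in none of the Ppara-null livers. The summit of the strongest peak stayed at 68 to 102 bases past the start site in 7 libraries and lay at 834 bases in Cpt2 KO replicate 2. A peak's extent is set by where its signal passes the caller's threshold, so extent and fold are not independent measures.

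**Figure D1:**
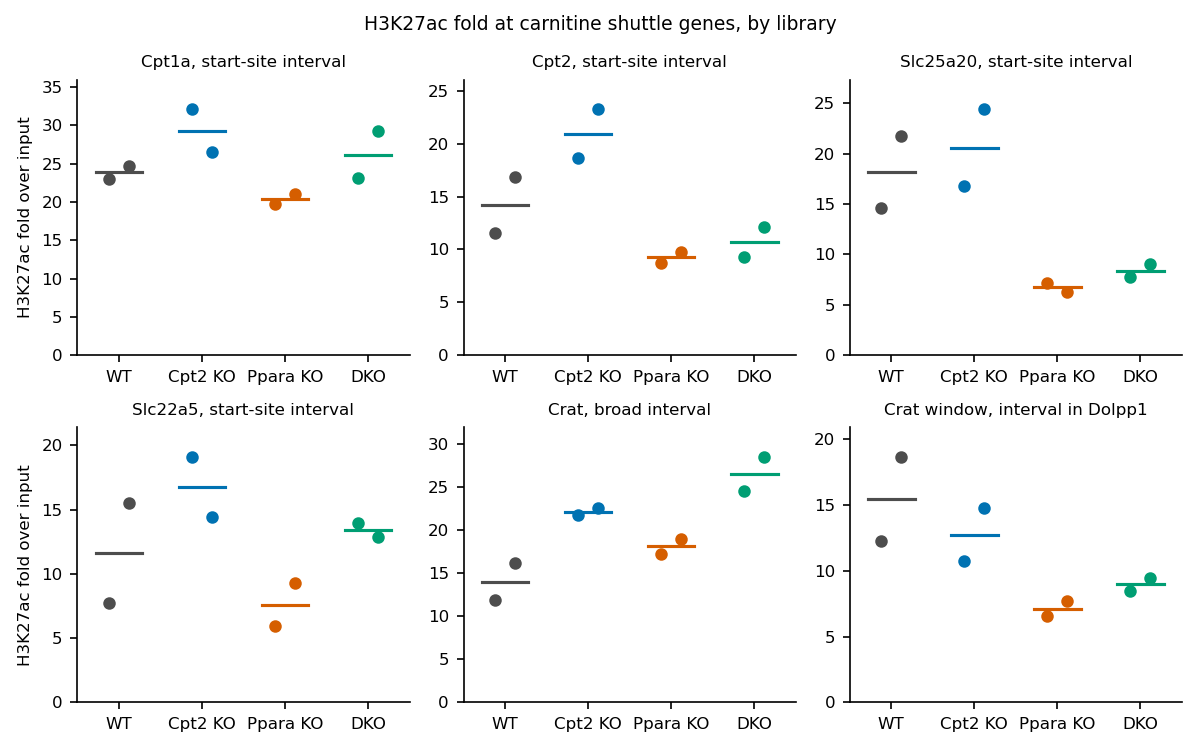
H3K27ac fold over input (y axis, from 0) in each library at the start-site intervals of Cpt1a, Cpt2, Slc25a20 and Slc22a5 and at 2 intervals of the Crat window, by genotype (x axis). Points are livers and lines are means of 2. At Slc25a20 the 4 Ppara-null livers lie between 6.29 and 9.00 and the 4 Ppara-intact livers between 14.6 and 24.4, while at Cpt1a and in the broad Crat interval the Ppara states overlap.

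At Cpt2, the matrix-side palmitoyltransferase and the gene deleted in Cpt2 KO and DKO livers, the start-site interval chr4:107920649-107924008 was also lower in H3K27ac without Ppara. Folds were 11.5 and 16.9 in wild-type livers, 18.7 and 23.2 in the Cpt2 KO livers, 8.75 and 9.80 in the Ppara KO livers, and 9.33 and 12.2 in the DKO livers. The higher DKO liver was above the lower WT liver, so the states overlapped in fold. The log2 difference was -0.81 ± 0.17 (SE) with a limma adjusted p of 0.0139. The call rested on 1 library: without Cpt2 KO replicate 2 the difference was -0.70 with an adjusted p of 0.0855. In called bases the states did not overlap, with 2245 to 2499 bases in Ppara-null and 2836 to 3283 in Ppara-intact livers. The stretch called in all 4 Ppara-intact and no Ppara-null liver ran from 2218 to 2650 bases past the start site, at the far edge of the peak inside the gene.

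The third called interval, chr2:30392205-30393590, fell in the Crat window with its middle 7579 bases from the Crat gene body and nearest to Dolpp1. Folds were 12.2 and 18.7 in wild-type livers, 10.7 and 14.7 in the Cpt2 KO livers, 6.59 and 7.67 in the Ppara KO livers, and 8.44 and 9.48 in the DKO livers. All 4 Ppara-null livers were below the Ppara-intact livers. The log2 difference was -0.82 ± 0.19 (SE; limma adjusted p = 0.0210). This call was lost in 6 of 16 other settings, with adjusted p up to 0.117: without WT replicate 2, Cpt2 KO replicate 2, either Ppara KO replicate or DKO replicate 2, and with the smallest peak width as a covariate.

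Cpt1a, the entry step of the shuttle, held a broad domain over its start site whose height and extent overlapped between the Ppara states. Its start-site interval, chr19:3318687-3327570, had folds of 23.0 and 24.7 in wild-type livers, 32.1 and 26.6 in the Cpt2 KO livers, 19.8 and 21.0 in the Ppara KO livers, and 23.2 and 29.2 in the DKO livers. Both Ppara KO livers were the lowest of the 8, and the DKO livers lay among the Ppara-intact ones. The Ppara difference was -0.23 ± 0.12 (SE; limma adjusted p = 0.277) on the log2 scale. Called bases ran from 8358 to 8875 in every library, out of an interval of 8884 bases. By comparison, peaks covered 89.3% to 97.6% of the Slc25a20 start-site interval in Ppara-intact livers and 22.8% to 34.5% in Ppara-null livers.

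Beyond the Cpt1a start site, 5 more H3K27ac intervals were tested and none passed for Ppara, Cpt2 or their interaction. The next interval into the gene, chr19:3327766-3331558, had folds of 9.69 and 7.44 in wild-type livers, 6.60 and 8.15 in the Cpt2 KO livers, 5.11 and 6.89 in the Ppara KO livers, and 6.08 and 5.32 in the DKO livers, and the Ppara states overlapped, with Ppara KO replicate 2 above Cpt2 KO replicate 1 (Ppara difference -0.47 ± 0.21, limma adjusted p = 0.198). The intervals chr19:3340446-3341006 and chr19:3341111-3341638 were called in both WT livers, at 4.53 and 6.66 and at 3.43 and 4.65, and in no other liver. Each of these folds was below the median peak fold of its library. The interval chr19:3338789-3340343 was called in WT at 6.43 and 7.38, in Cpt2 KO replicate 1 at 5.80, in Ppara KO at 4.0 and 4.80 and in neither DKO liver. The share of all H3K27ac intervals with either pattern of calls was not computed, so whether these patterns are unusual was not tested. Called bases at chr19:3327766-3331558 were 2766 and 971 in DKO livers and 3320 to 3754 in the other livers. At chr19:3332780-3338681 they were 1753 and 1486 in DKO, 2794 and 4528 in Ppara KO and 4405 to 5659 in Ppara-intact livers. Inside it, chr19:3336307-3336446 was called in all 4 Ppara-intact livers and no other. At chr19:3375989-3378672 called bases split by Cpt2 state, with 2003 to 2523 in Cpt2-null and 498 to 1609 in Cpt2-intact livers. The Ppara states overlapped there.

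Slc22a5, the carnitine importer, had its lowest mean H3K27ac fold in Ppara KO livers (7.61, against 11.6 in WT), without a call. Its start-site interval, chr11:53888054-53892500, had folds of 7.75 and 15.5 in wild-type livers, 19.1 and 14.4 in the Cpt2 KO livers, 5.92 and 9.30 in the Ppara KO livers, and 14.0 and 12.8 in the DKO livers. WT replicate 1 lay below Ppara KO replicate 2, and the states overlapped. The Ppara difference was -0.47 ± 0.21 (SE; limma adjusted p = 0.204). The start site itself was inside a peak in all 4 Ppara-intact livers, where that peak was 3518 to 4187 bases long, and in both DKO livers, where it was 883 and 821 bases long. In both Ppara KO livers the start site lay outside every peak, with the nearest peak beginning 48 and 2 bases past it. In WT replicate 1 and in the Cpt2 KO and DKO livers the peak over it began at -17 to -9 bases. This contrast therefore rests on the position of a peak edge. Called bases in the interval were 2350 to 3496 in Ppara-null and 4076 to 4187 in Ppara-intact livers.

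Crat, the acetyltransferase, showed a different pairing of height and extent. The widest H3K27ac interval of the gene, chr2:30409527-30416919, had folds of 11.8 and 16.1 in wild-type livers, 21.7 and 22.5 in the Cpt2 KO livers, 17.2 and 18.9 in the Ppara KO livers, and 24.5 and 28.5 in the DKO livers. The WT livers were the lowest of the 8 and the DKO livers the highest, and neither the Ppara difference (0.29 ± 0.14, limma adjusted p = 0.217) nor the Cpt2 difference (0.35 ± 0.14, limma adjusted p = 0.104) passed. Called bases were fewer in each Ppara-null liver (2953 to 3758) than in each Ppara-intact liver (4974 to 7291). The missing stretches lay in the middle of the interval and toward lower coordinates, such as chr2:30412339-30412586, while peaks toward the upper end of the gene body were called in all 8 libraries. Next to it, chr2:30408128-30409360 was called in the 4 Ppara-intact livers alone, at 6.67 and 7.67 in WT and 7.25 and 13.6 in Cpt2 KO, as were 0.725% of all H3K27ac intervals.

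In all, 5 of the 16 tested H3K27ac intervals had fewer called bases in every Ppara-null liver than in any Ppara-intact liver, and 0 had more. Over all 18281 intervals, 4.40% had fewer and 4.68% had more. The 5 were the start-site intervals of Cpt2, Slc25a20 and Slc22a5, the widest Crat interval and the one at Dolpp1. The count was 5 as well when only peaks with a −log10 q of at least 10 were used, an alternative chosen after the data were seen. Kupffer cell markers were also higher with Ppara loss within each Cpt2 state, as given above, and hepatocyte markers summed highest in DKO livers.

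**Figure D2:**
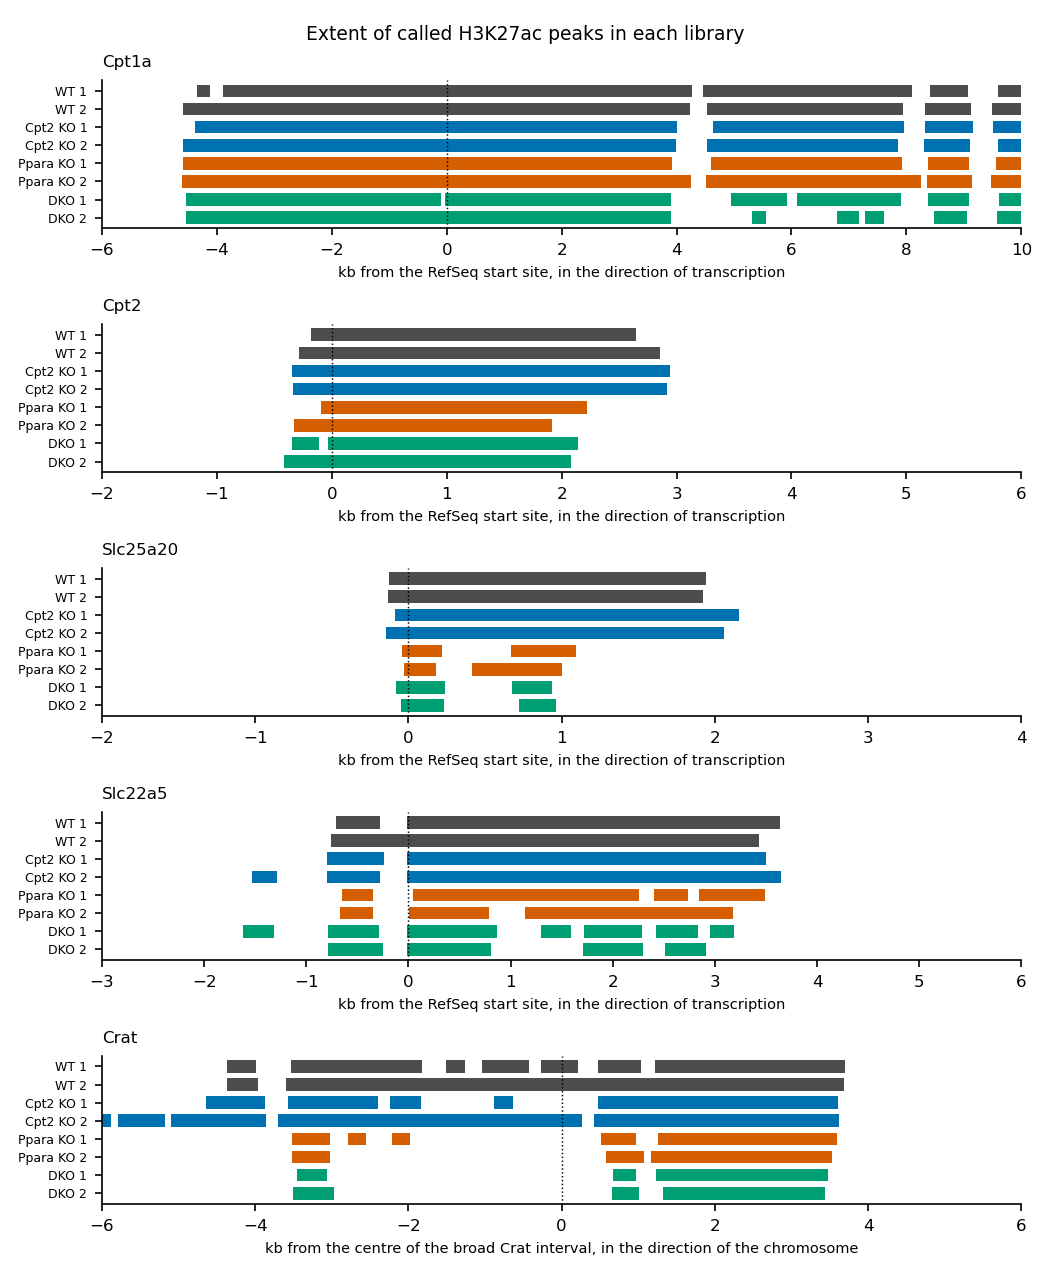
Called H3K27ac peaks in each of the 8 libraries (rows, coloured by genotype) around the start sites of Cpt1a, Cpt2, Slc25a20 and Slc22a5, in kb from the start site in the direction of transcription (dotted line at 0), and around the centre of the widest Crat interval, in kb in the direction of the chromosome. Each bar spans 1 called peak and its height carries no value. Bars at Slc25a20 are 2058 to 2250 bases long in the 4 Ppara-intact libraries, and the bars over its start site are 210 to 316 bases long in the Ppara-null ones.

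Loss of Cpt2 gave no call at any of the 16 H3K27ac intervals, whereas 12.3% of all tested intervals passed for Cpt2 in either direction. At an unadjusted p under 0.05 there were 4 of 16, against 30.1% of all tested intervals, and the lowest limma adjusted p was 0.0621. That value belonged to chr4:107899419-107901459, beyond the 3′ end of Cpt2 and nearest to Czib, with folds of 12.3 and 12.5 in wild-type livers, 10.8 and 12.1 in the Cpt2 KO livers, 15.1 and 19.8 in the Ppara KO livers, and 13.3 and 14.1 in the DKO livers. The difference there was -0.49 ± 0.16 (SE), the Ppara KO livers were the highest, and the Cpt2 states overlapped in fold. Called bases there did not overlap, with 1290 to 1768 in Cpt2-null and 1891 to 1963 in Cpt2-intact livers. The same held at chr9:108686468-108693306 (4811 to 5441 against 5660 to 6647). Of the 16 intervals, these 2 had fewer called bases in every Cpt2-null liver and 1, chr19:3375989-3378672, had more. No share over all intervals stands beside these Cpt2 counts.

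Calls for Cpt2 depended on the scaling of the libraries. Before centring, the median interval was higher in Cpt2-null livers by 0.25 on the log2 scale, and 17.8% of all tested intervals had all 4 Cpt2-null folds above all 4 Cpt2-intact folds. Without centring, 3 member intervals passed as higher in Cpt2-null livers, namely the widest Crat interval (0.61, limma adjusted p = 0.0212), the Slc22a5 start-site interval (0.73, adjusted p = 0.0287) and chr19:3375989-3378672 in Cpt1a (0.69, adjusted p = 0.0253). With centring the last of these had a difference of 0.43 ± 0.19 (limma adjusted p = 0.152). Its folds were 4.57 and 7.86 in wild-type livers, 9.67 and 9.49 in the Cpt2 KO livers, 7.07 and 6.85 in the Ppara KO livers, and 10.3 and 12.6 in the DKO livers, with every Cpt2-null liver above every Cpt2-intact one. Kupffer, stellate and endothelial cell markers moved with Cpt2 state in the same libraries, and their part in these values was not tested. With the smallest peak width as a covariate, in the centred fit, the Cpt2 difference was 0.60 at the widest Crat interval (limma adjusted p = 0.740) and 1.14 at the Slc22a5 start-site interval (adjusted p = 0.688). Width and Cpt2 state can hardly be told apart in that fit.

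At the Cpt2 gene itself 1 interval was called by Cpt2 state alone. At chr4:107901663-107903225, with its middle 1538 bases beyond the 3′ end of the gene body, H3K27ac was called in all 4 Cpt2-intact livers (7.77 and 9.87 in WT, 4.78 and 5.52 in Ppara KO) and in none of the Cpt2-null ones, as for 0.826% of all intervals. H3K4me1 at the matching interval, chr4:107901656-107903136, was called in both Cpt2 KO livers at 5.74 and 9.58, next to 8.19 and 10.3 in WT and 7.58 in Ppara KO replicate 1. It had no call in Ppara KO replicate 2 or in either DKO liver. H3K9ac was called there in both the WT and the Cpt2 KO liver, at chr4:107901659-107903025.

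The interaction, the difference between the Ppara effects without and with Cpt2, passed at 0 of the 16 H3K27ac intervals, with 0 at an unadjusted p under 0.05. Over all tested intervals 0.00547% passed, and 15.2% had an unadjusted p under 0.05. At Slc25a20 the interaction estimate was 0.04 ± 0.39 (SE; limma adjusted p = 0.968), and at Cpt2 it was -0.46 ± 0.35 (adjusted p = 0.553).

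**Figure D3:**
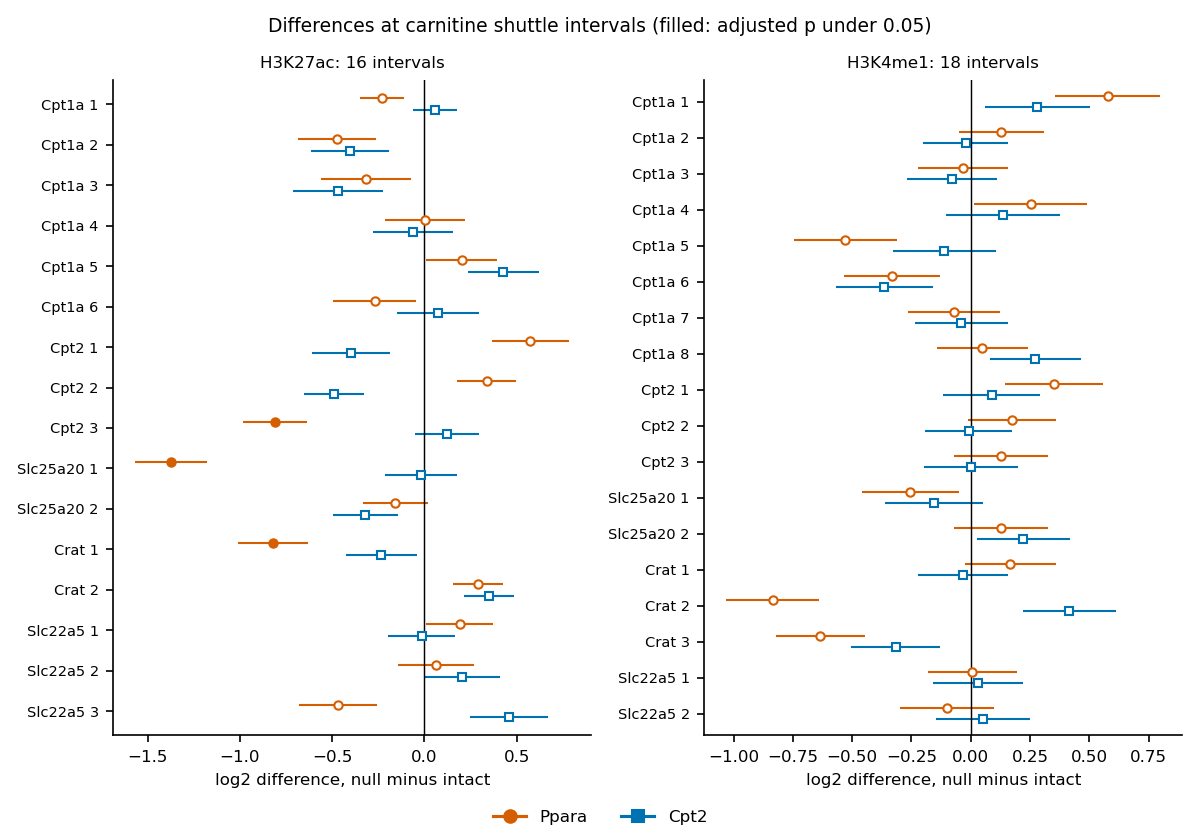
Log2 difference in fold (x axis, null minus intact) with its standard error at each member interval called in all 8 libraries, in chromosome order within each gene, for H3K27ac (16 intervals) and H3K4me1 (18 intervals). Circles are the Ppara difference, squares the Cpt2 difference, and filled symbols have a limma adjusted p under 0.05. The 3 filled symbols are the Ppara differences at the start-site intervals of Slc25a20 (-1.37) and Cpt2 (-0.81) and at the Crat-window interval in Dolpp1 (-0.82).

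H3K4me1 peaks did not cover the start sites. At Slc25a20 the nearest peak began 24003 to 24810 bases past the start site in the Ppara-intact livers and DKO replicate 2. The start sites of Cpt1a, Cpt2, Slc25a20 and Slc22a5 were inside an H3K4me1 peak in 0 of 8 libraries. Of the 63 H3K4me1 intervals, 18 were called in all 8 libraries, and 0 of these passed the limma test for Ppara, where 0.128% of all 19526 tested intervals did. For Cpt2 and for the interaction 0 of 18 passed, with 0.00% of all intervals passing in each. At an unadjusted p under 0.05 the counts of 18 were 4 for Ppara, 1 for Cpt2 and 1 for the interaction, against 13.9%, 9.81% and 2.90% of all tested intervals.

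The lowest adjusted p for H3K4me1 was in Crat. At chr2:30406591-30409362, which contains the H3K27ac interval called in Ppara-intact livers alone, folds were 10.0 and 8.83 in wild-type livers, 13.1 and 18.1 in the Cpt2 KO livers, 7.22 and 5.86 in the Ppara KO livers, and 6.67 and 7.38 in the DKO livers. All 4 Ppara-null livers were below the Ppara-intact ones, as in 3.13% of all tested H3K4me1 intervals. The log2 difference was -0.84 ± 0.20 (SE) with a limma adjusted p of 0.0962. Called bases were 521 to 933 in Ppara-null and 1721 to 2755 in Ppara-intact livers, where 3.43% of all tested intervals had fewer bases in every Ppara-null liver. Of the 18 tested H3K4me1 intervals, 2 had fewer and 2 had more. Fewer also held at chr9:108686139-108692124 near Slc25a20 (4914 to 5139 against 5211 to 5683). More held at chr11:53887897-53889259 in Slc22a5 (875 to 1268 against 451 to 833) and in Cpt2, described below.

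The neighbouring Crat interval, chr2:30409682-30415378, had H3K4me1 folds of 18.4 and 17.9 in wild-type livers, 10.5 and 14.6 in the Cpt2 KO livers, 11.9 and 8.38 in the Ppara KO livers, and 9.00 and 9.78 in the DKO livers. Ppara KO replicate 1 lay above Cpt2 KO replicate 1, and the difference was -0.63 ± 0.19 (SE; limma adjusted p = 0.167). Without Cpt2 KO replicate 1 both Crat intervals passed as lower in Ppara-null livers, at -0.95 (adjusted p = 0.0173) and -0.75 (adjusted p = 0.0324). That setting also raised the calls over all intervals from 25 to 1022.

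H3K4me1 calls over Crat and Slc22a5 were fewer in most Ppara-null livers. At Crat, 6 and 10 of 16 intervals were called in wild-type livers, 6 and 15 in the Cpt2 KO livers, 5 and 4 in the Ppara KO livers, and 4 and 5 in the DKO livers. At Slc22a5, 11 and 10 of 20 were called in wild-type livers, 13 and 16 in the Cpt2 KO livers, 12 and 4 in the Ppara KO livers, and 7 and 6 in the DKO livers. At Crat every Ppara-null liver had fewer calls than every Ppara-intact liver, with at most 5 against at least 6. No share of genes with such a split stands beside this. At Slc22a5 the first Ppara KO liver lay among the Ppara-intact ones. At Cpt1a the count was 9 to 11 of 15 in all 8 libraries. Over all 103014 H3K4me1 intervals, the share called was 46.9% to 51.0% in Ppara-intact and 44.1% to 50.7% in Ppara-null livers. These counts share each library's peak calling, and libraries with a smallest peak width of 196 to 200 bases (both WT, Cpt2 KO replicate 2 and Ppara KO replicate 1) differ in that respect from those at 210 to 221 bases. The part of peak width in the counts was not tested.

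Single H3K4me1 intervals were called in all 4 Ppara-intact livers and no other in both genes, as for 0.604% of all intervals. In Slc22a5 this was chr11:53875627-53876424, inside the gene body, with folds of 5.50 and 7.75 in WT and 6.40 and 11.6 in Cpt2 KO. In the Crat window it was chr2:30420708-30421431, nearest to Ptpa, with 4.33 and 6.00 in WT and 5.75 and 4.83 in Cpt2 KO.

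H3K4me1 was called nearer to the start site in all 4 Ppara-null livers at Cpt2, and in both Ppara KO livers and DKO replicate 1 at Slc25a20. An interval 1018 bases past the Slc25a20 start site, chr9:108662889-108663419, had calls in both Ppara KO livers at 4.84 and 5.59 and in DKO replicate 1 at 5.0, and in no Ppara-intact liver or DKO replicate 2. The share of all H3K4me1 intervals with this pattern was not computed. In Cpt2 the interval chr4:107920066-107922888 covered 2177 to 2465 bases in Ppara-null and 1478 to 1684 bases in Ppara-intact livers, and 3.94% of all tested intervals had more bases in every Ppara-null liver. The stretch from 1073 to 1416 bases past the Cpt2 start site had H3K4me1 in all 4 Ppara-null livers alone. Fold at that interval was 4.36 to 6.57 over the 8 libraries with overlapping states (Ppara difference 0.13 ± 0.20, limma adjusted p = 0.815).

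**Figure D4:**
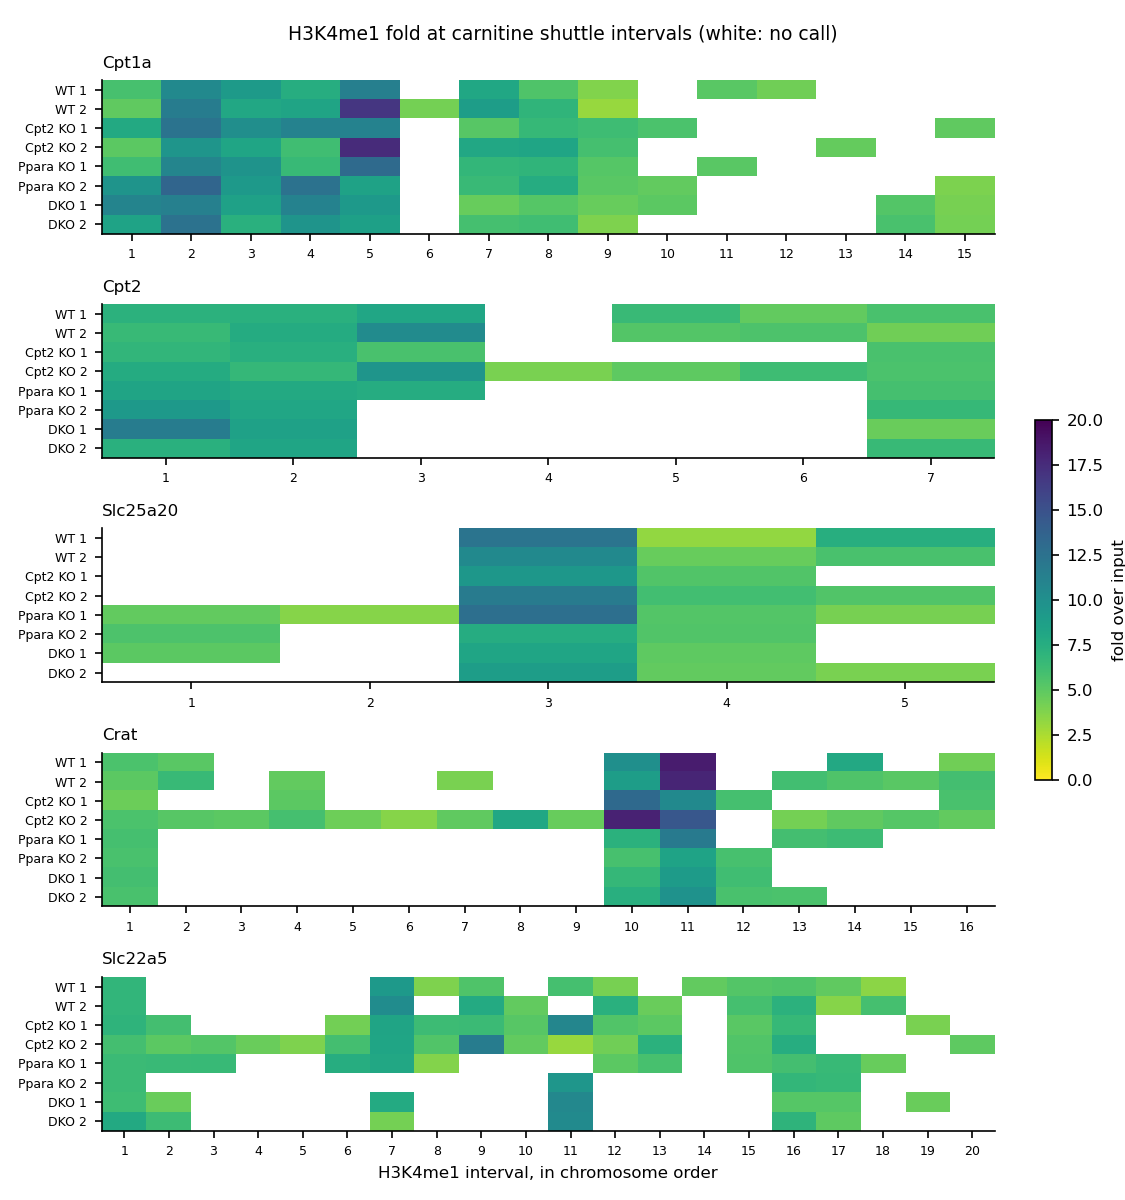
H3K4me1 fold over input (colour) at the 63 member intervals, numbered in chromosome order within each gene (columns), in each of 8 libraries (rows), with white for no call. At Crat the 4 lowest rows, the Ppara-null libraries, have 4 or 5 of 16 intervals called, against 6 to 15 in the Ppara-intact rows.

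H3K9ac data came from a single liver each of WT and Cpt2 KO, as intervals without values, so calls are described with no test. Of the 43 member intervals, 31 (72.1%) were in both livers, 5 in WT alone and 7 in Cpt2 KO alone, against 55.2% in both over all 46568 intervals. The start sites of Cpt1a, Cpt2, Slc25a20 and Slc22a5 were inside an interval called in both livers. All 4 Slc25a20 intervals and both Slc22a5 intervals were shared. Crat had 8 shared intervals, 4 in Cpt2 KO alone and 0 in WT alone, while Cpt1a had 13 shared, 4 in WT alone and 1 in Cpt2 KO alone. In Cpt2, chr4:107919010-107919230 and chr4:107919447-107919949, inside the gene, were in the Cpt2 KO liver alone.

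Genes of the same pathway were described at the strongest interval within the same window that was called in all 8 libraries, with lists chosen with earlier results in view. At their own strongest intervals the shuttle genes had Ppara log2 differences of -0.23 (Cpt1a), 0.34 (Cpt2), -0.16 (Slc25a20), 0.29 (Crat) and -0.47 (Slc22a5). None passed (limma adjusted p from 0.204 to 0.641), and those of Cpt2 and Slc25a20 lay nearest to a neighbouring gene. The 3 of 16 given above counts intervals, unlike the counts of genes below. Of 16 genes of mitochondrial fatty acid oxidation, 15 had a tested H3K27ac interval, and 6 were lower and 0 higher without Ppara, against 5.74% of 11264 genes passing in either direction, 4.13% lower and 1.62% higher. They were Decr1 (-1.36), Acads (-1.31), Eci2 (-1.15), Eci1 (-0.98), Acadvl (-0.96) and Acsl1 (-0.53), where the values are log2 differences. Decr1, Eci1 and Eci2 handle unsaturated acyl-CoA, Acads and Acadvl are acyl-CoA dehydrogenases, and Acsl1 makes acyl-CoA, the substrate of Cpt1a. The median of the 15 genes was -0.26, against -0.05 for all genes. Hadha and Hadhb, subunits of the trifunctional protein, share 1 interval at 0.07 ± 0.13 (limma adjusted p = 0.809).

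Of 12 other genes of carnitine and malonyl-CoA metabolism, 9 were tested and 1 was lower without Ppara. This was Slc22a4, a transporter related to Slc22a5, with folds of 7.25 and 12.6 in wild-type livers, 8.45 and 7.79 in the Cpt2 KO livers, 5.47 and 5.08 in the Ppara KO livers, and 4.92 and 5.50 in the DKO livers. All 4 Ppara-null livers were below the others, and the log2 difference was -0.78 ± 0.20 (SE; limma adjusted p = 0.0291). Crot, the peroxisomal carnitine octanoyltransferase, was at -0.51 ± 0.17 (limma adjusted p = 0.0803). Mlycd, which removes malonyl-CoA, was at 0.17 ± 0.13 (limma adjusted p = 0.480), taken at an interval that lies nearest to Osgin1. Of 11 Ppara target genes of other pathways, 8 were tested and 2 were lower, Cyp4a10 (-1.67) and Fabp1 (-0.98). For Cpt2 and for the interaction 0 genes of the 3 lists passed under H3K27ac, where 10.7% and 0.00% of all genes did.

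**Figure D5:**
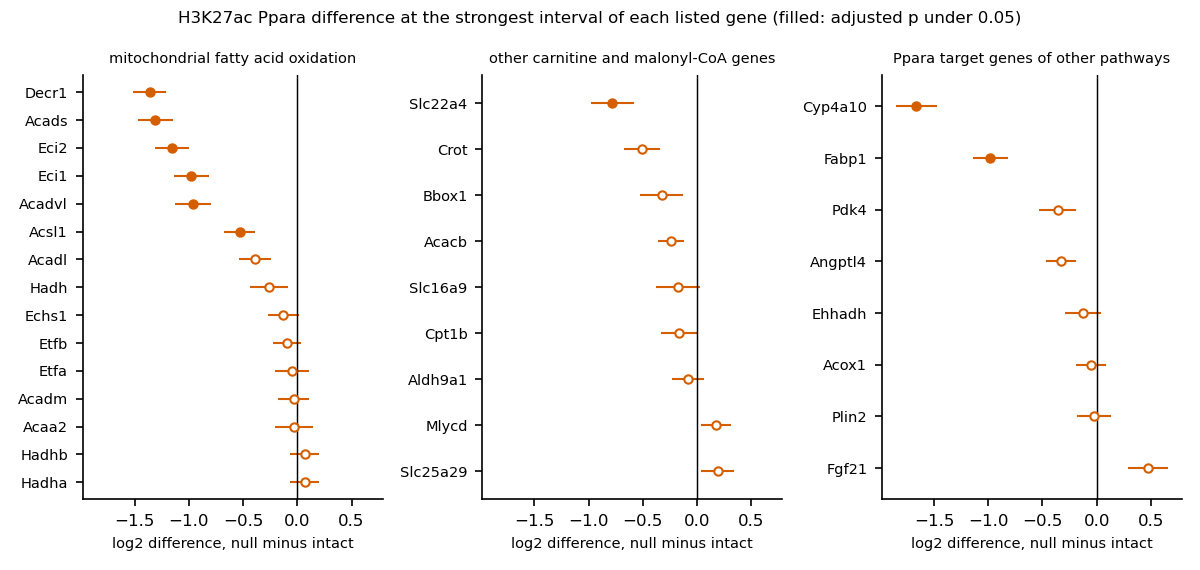
Log2 difference in H3K27ac fold (x axis, Ppara-null minus Ppara-intact) with its standard error at the strongest interval of each listed gene, in 3 lists. Filled points have a limma adjusted p under 0.05, and all 9 filled points are below 0, from -1.67 at Cyp4a10 to -0.53 at Acsl1.

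The strongest H3K27ac interval in each gene's window was the start-site interval in Cpt1a and Slc22a5, the widest interval in Crat, and an interval of a neighbour for Cpt2 (chr4:107899419-107901459, nearest to Czib) and Slc25a20 (chr9:108686468-108693306, nearest to Prkar2a). Across the 8 libraries the centred log2 folds of these intervals correlated between pairs of the 5 genes from -0.75 (Cpt2 and Slc22a5) to 0.47 (Cpt1a and Slc22a5), with libraries and their depth shared by all points. Among 11263 genes compared with Cpt1a, the most alike pattern was that of the interval shared by Hspd1 and Hspe1 (Pearson r = 0.95 over 8 libraries), followed by Pdgfrl (0.93). For Slc22a5 it was the interval shared by Chchd5 and Polr1b (0.98) and then Cct6a (0.96), and for Crat it was Myo1g (0.99) and then the interval of Mtmr11 and Sf3b4 (0.99).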

How the data were processed

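ChIP-seq libraries for H3K27ac and H3K4me1 (2 livers for each of 4 genotypes) and H3K9ac (1 WT, 1 Cpt2 KO) were placed in groups by their titles. The authors deposited a peak list per library, called with MACS2 2.1.0 after BWA alignment to mm10, per the submitters' processing notes; replicates were not pooled. The fold enrichment of a peak is the deposited ratio of the ChIP pileup over input. The deposited −log10 q of each peak was at least 5.21 in every library and was used as a filter in 1 alternative. In 1 H3K27ac list (Ppara KO replicate 2) the build word in the peak names differs, and mm10 was assumed. Consensus intervals per mark were taken from the authors' deposited tables, which hold positions and no values. Read depth, duplicate handling and the caller's settings are not given in the sources used here, so peak numbers limit the precision of each library only indirectly.

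Genes were placed with RefSeq (GRCm38.p6). Crat had no entry in the promoter table. Intervals called in all 8 libraries of a mark were tested with limma 3.58.1 (R 4.3.3) on log2 folds, each library centred on its median, in a model with terms for Ppara, Cpt2 and their interaction, and p-values were adjusted over all intervals tested (Benjamini-Hochberg, threshold 0.05). The script was tested on simulated data. Peak tables were handled with pandas 2.3.3. All 5 genes were named; list genes were named where they passed, with a few that did not as examples. Some genes of the lists are not reported here. The members and lists were chosen with earlier results of these data known. Replicates are separate animals by the numbers in the peak names, and those numbers are the same for both marks, so the marks come from the same livers. Alternatives covered scaling, uncalled libraries, peak threshold, overlap, the value of an interval, peak width as a covariate, the replicate block and leaving out each library.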

Additional observations from a re-analysis of the deposited data

How the results depend on the processing

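Under 16 alternatives, the number of H3K27ac member intervals called for Ppara was 2 to 4 except without Cpt2 KO replicate 2, when it was 1, and over the settings that leave out 1 library it ran from 1 to 3. The Slc25a20 start-site interval passed under all 16, with log2 differences from -1.68 to -1.21. For Cpt2 under H3K27ac the count of 0 became 3 without centring and 3 with uncalled libraries filled with the lowest fold of that library. The filled fit called chr4:107901663-107903225 (-1.78), chr4:107899419-107901459 (-0.51) and chr19:3338789-3340343 (-1.19) as lower in Cpt2-null livers, and for Ppara it added chr2:30408128-30409360 (-1.85). In that fit the value of an uncalled library is set and not measured. The H3K4me1 count for Ppara was 0 except without Cpt2 KO replicate 1, when it was 2, so that leaving out 1 library gave 0 to 2. The H3K27ac and H3K4me1 interactions and the H3K4me1 Cpt2 difference had 0 calls under each alternative.

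With the replicate block the counts were 3 for Ppara, 0 for Cpt2 and 0 for the interaction under H3K27ac, and 0 for each under H3K4me1. Correlations of same-numbered replicates' deviations ran from -0.065 to 0.17 for H3K27ac and from -0.49 to 0.10 for H3K4me1, so the numbers do not pair the livers. Over all intervals, calls for Ppara under H3K27ac ranged from 488 to 3843 around 1342, and for Cpt2 from 0 (smallest peak width as a covariate) to 7031 around 2245. With 2 livers per group, standard errors of the tested H3K27ac member intervals were 0.12 to 0.24 on the log2 scale.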

Other observations

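The position of the H3K27ac summit overlapped between the Ppara states at Cpt2 and Cpt1a. At Cpt2 the summit of the strongest peak was 147 to 254 bases past the start site in Ppara-intact livers and 182 to 197 in Ppara-null livers. At Cpt1a it lay at 217 to 627 bases in Ppara-intact and 251 to 590 in Ppara-null livers. Stretches of at least 100 bases with H3K27ac in all 4 Ppara-null livers and in no Ppara-intact liver numbered 0 at the 5 genes. Stretches in the other direction lay at Cpt1a, Cpt2, Slc25a20 and Crat. Such stretches were sought at the 5 genes alone, so no share over all genes stands beside them. In the H3K27ac of the Slc22a5 gene body, chr11:53882995-53883715 was called in Ppara KO replicate 2 at 6.41 and in DKO at 7.97 and 9.36, and in no Ppara-intact liver. The share of all H3K27ac intervals with this pattern of calls was not computed, so whether it is unusual was not tested.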
